A study of Mus musculus with 24 samples.

Results

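A set of 10 genes of hepatic stellate cells and liver fibrosis was followed across the 6 genotypes of the series, Col1a1, Col1a2, Col3a1, Acta2, Timp1, Tgfb1, Lox, Pdgfrb, Des and Lrat. They were chosen by name, and all 10 were found among the 35275 genes of the read count table. RNA-seq was performed on livers of male C57BL/6 mice, 8 to 10 weeks of age, that had been fasted for 24 h, with 4 libraries in each group and 24 in all. The groups were control, Tsc1 L-/- (liver-specific loss of Tsc1, a negative regulator of mTorc1), Cpt2 L-/- (liver-specific loss of Cpt2, an enzyme required for mitochondrial fatty acid oxidation), DKO (loss of both, labelled Tsc1Cpt2 L-/-), Ppara KO and Cpt2 Ppara KO (labelled Cpt2L-/- Ppara KO). The liver-specific deletions were made with Cre under the albumin promoter, which is active in hepatocytes. The labels call the controls wild type, whereas the methods of the study describe littermates that carried floxed Tsc1 and Cpt2 alleles, and for Ppara KO no promoter or tissue is named in the labels. Ppara KO and Cpt2 Ppara KO are described here from the labels alone, which give all 24 libraries the same strain, sex, age and fast, whereas the methods of the study cover the other 4 groups. Each library has an identifier of its own in the labels, and the libraries of a group differed from each other by more than counting noise. Since no label states that each came from a separate animal, p-values are read as the spread between these libraries.

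Hepatic stellate cells lie between the sinusoidal endothelium and the hepatocytes and store vitamin A as retinyl esters, which the enzyme Lrat makes. After injury they lose these stores and become myofibroblasts, which contain α-smooth muscle actin (Acta2) and secrete fibrillar collagens. Transforming growth factor β1 (Tgfb1) and platelet-derived growth factor, acting through the receptor Pdgfrb, are the classic signals of this change. Desmin (Des) is an intermediate filament of stellate and muscle cells, Lox cross-links collagen and Timp1 inhibits the proteases that degrade it.

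Total counts ranged from 14470968 to 20371204 per library, and the members had between 0 and 950 counts in a library. Ppara was 13.2 to 44.6 CPM (counts scaled to a common library size) in Ppara KO and 26.2 to 89.9 in Cpt2 Ppara KO, against 216 to 277 in control. Tsc1 was 18.1 to 28.8 CPM in Tsc1 L-/- and 15.3 to 17.9 in DKO, against 37.2 to 40.1 in control. Cpt2 was 79.9 to 105 CPM in Cpt2 L-/- and 88.2 to 104 in control, and since counts were summed over the whole gene this does not check a deletion of part of it. The hepatocyte markers Alb, Apoa1, Apob and Ttr were detected in every library (Alb, 10932 to 49048 CPM), as were the stellate cell markers Lrat, Des and Reln. The neutrophil marker Ly6g was at 0 in 21 of the 24 libraries. Other neutrophil markers were detected at low levels, with S100a8 at up to 3.51 CPM and in every library. S100a9 was at 0 in 1 library and reached 3.88 CPM, and Retnlg was at 0 in 3. Several libraries stood apart. Control replicate 3 and Ppara KO replicate 4 were high in the smooth muscle myosin Myh11 (38.1 and 101 CPM, with 14.7 as the next highest library), and Ppara KO replicate 1 and Cpt2 Ppara KO replicate 1 were high in Cpt2 (94.8 and 123 CPM, with 51.4 and 39.1 as the next highest of their groups). The same first libraries had the highest Ppara of their groups (44.6 and 89.9 CPM). Cpt2 Ppara KO replicate 1 was also the lowest of its group for 8 of the 10 members. Control replicate 3 was the highest of its group for 8 of the 10 members.

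Per length, Tgfb1 was the highest of the members. Over the 24 libraries the mean level in FPKM (counts scaled for gene length and library total) was 5.02 for Tgfb1, 2.84 for Col1a2, 2.53 for Col3a1, 2.30 for Acta2, 2.25 for Lrat, 1.96 for Des, 1.43 for Pdgfrb and 1.0 for Col1a1. Lox and Timp1 were at 0.189 and 0.15 FPKM. As a ratio of the highest to the lowest library, the range was widest for Acta2, from 0.478 to 31.2 CPM, for the 8 members whose mean reached 1 CPM, and narrowest for Tgfb1, from 4.96 to 15.2 CPM. Timp1 did not pass the filter on low counts and was not tested, which left 9 members. A test of any difference among the 6 groups (edgeR, adjusted over 13987 genes) called 8 of these 9, with Tgfb1 as the exception (adjusted p = 0.262), against 66.7% of all genes tested. Limma on log2 FPKM called 5 of the 9.

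**Figure D1:**
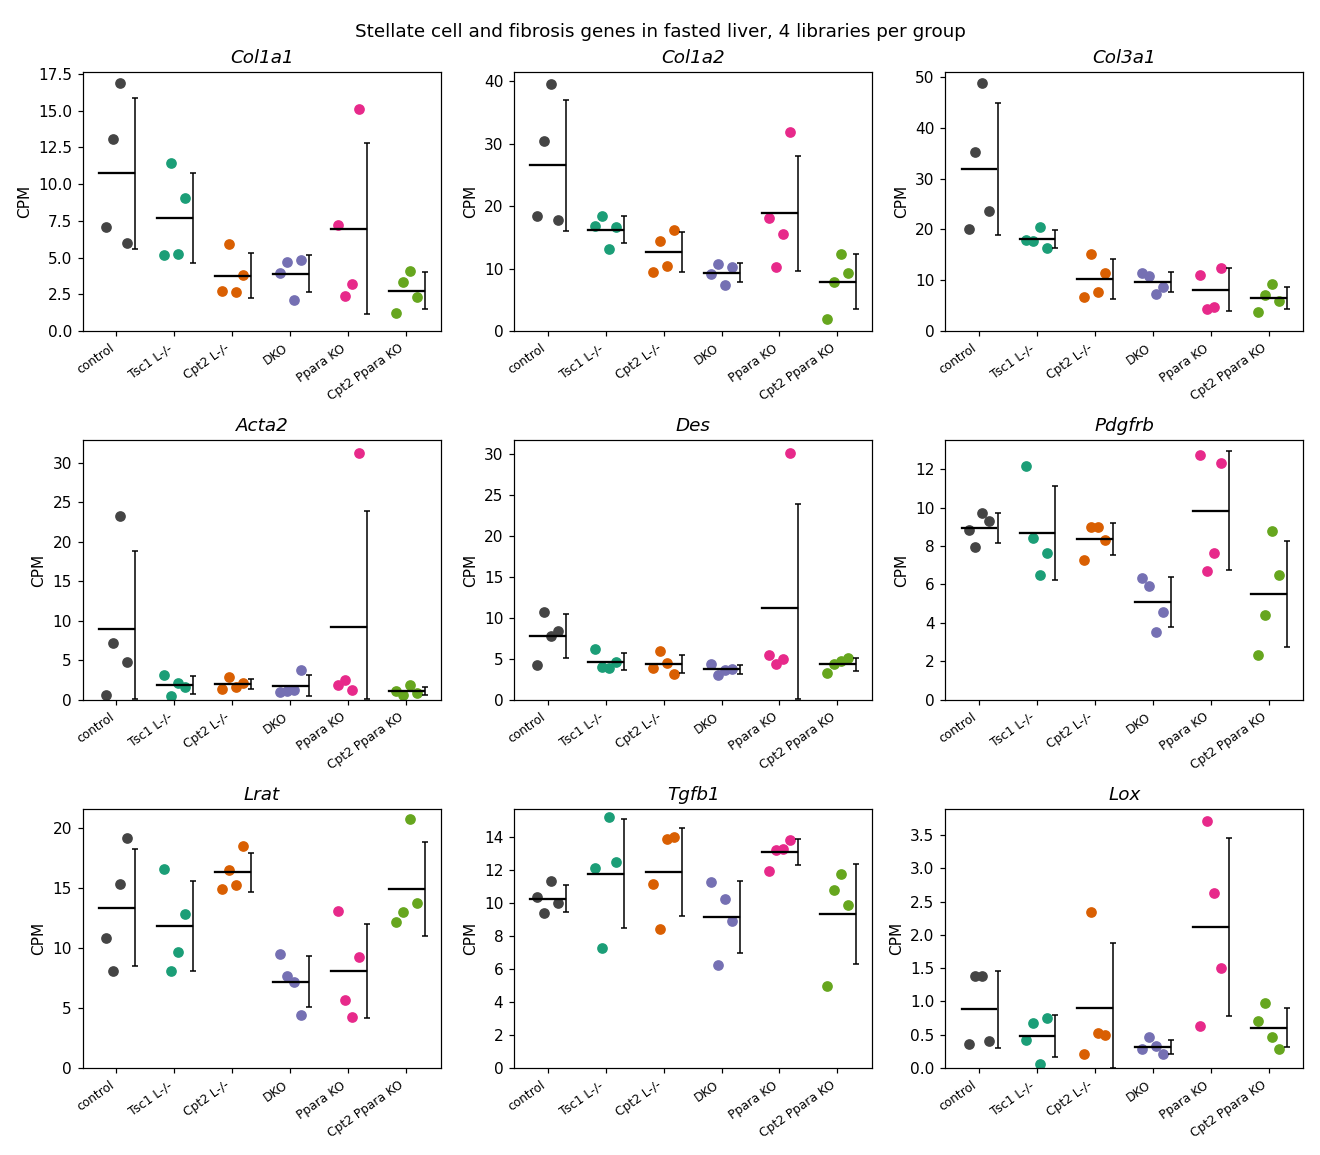
CPM (linear axes starting at 0) of the 9 members that passed the filter on low counts, in each library of the 6 groups. Points are libraries in order of replicate number, horizontal lines are group means and the bars beside them are 1 SD, with the lower end stopped at 0. Col3a1 is highest in control (20.0 to 48.8 CPM), control replicate 3 and Ppara KO replicate 4 stand out for Acta2, and Ppara KO replicate 4 stands out for Des.

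The fibrillar collagens, which form the scar of fibrotic liver, were lower in Cpt2 L-/- and in DKO than in control. Col3a1, the chain of type III collagen (chr1:45311538-45349706, plus strand, GRCm38), was 20.0, 35.3, 48.8 and 23.6 CPM in the 4 control libraries, 6.60, 15.1, 7.70 and 11.4 in Cpt2 L-/- and 11.5, 10.9, 7.35 and 8.76 in DKO. The Tsc1 L-/- libraries, at 17.9, 17.7, 20.5 and 16.4 CPM, overlapped with control and lay above all Cpt2 L-/- and DKO libraries. All Cpt2 L-/- and DKO libraries were below every control library. Col3a1 was reduced to 0.318 of control in Cpt2 L-/- (log2 fold change -1.65, SE 0.28, adjusted p = 0.000287) and to 0.306 in DKO (log2 fold change -1.71, SE 0.28, adjusted p = 0.000172, edgeR quasi-likelihood test, adjusted over 13641 genes). In Ppara KO the libraries were at 10.9, 4.34, 4.78 and 12.5 CPM and in Cpt2 Ppara KO at 3.83, 7.09, 9.22 and 5.86. Of neighbours in the order of group means, only Tsc1 L-/- (18.1 ± 1.71 CPM, SD, n = 4) and Cpt2 L-/- (10.2 ± 3.88) differed by more than the sum of their SDs.

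Col1a1 (chr11:94936224-94953042, plus strand) and Col1a2 (chr6:4504814-4541543, plus strand) encode both chains of type I collagen. Col1a1 was 7.06, 13.1, 16.9 and 5.98 CPM in control, 5.15, 11.4, 5.22 and 9.06 in Tsc1 L-/-, 2.72, 5.89, 2.65 and 3.79 in Cpt2 L-/- and 3.95, 4.68, 2.08 and 4.81 in DKO. Col1a2 was 18.4, 30.4, 39.6 and 17.7 CPM in control, 16.8, 18.4, 13.1 and 16.6 in Tsc1 L-/-, 9.48, 14.5, 10.4 and 16.2 in Cpt2 L-/- and 9.15, 10.7, 7.35 and 10.3 in DKO. For both chains the control libraries lay above all Cpt2 L-/- and DKO libraries, and the Tsc1 L-/- libraries overlapped with control. Col1a1 fell in Cpt2 L-/- (log2 fold change -1.52, SE 0.38, adjusted p = 0.00569) and in DKO (log2 fold change -1.44, SE 0.38, adjusted p = 0.00672). Col1a2 fell in Cpt2 L-/- (log2 fold change -1.08, SE 0.24, adjusted p = 0.00222) and in DKO (log2 fold change -1.48, SE 0.24, adjusted p = 0.000141). Without control replicate 3, the highest library for all 3 collagens, the 6 calls remained, with log2 fold changes from -1.42 (Col3a1, DKO) to -0.78 (Col1a2, Cpt2 L-/-). In Ppara KO, Col1a1 was 7.21, 2.37, 3.19 and 15.1 CPM and Col1a2 was 18, 10.2, 15.5 and 31.8, and in Cpt2 Ppara KO they were 1.20, 3.34, 4.08 and 2.33 and 1.91, 7.92, 12.4 and 9.35. Neighbouring groups in the order of means did not differ beyond their SDs for either gene.

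The sequences before the start sites are shown for Col3a1 and Col1a2, called lower in both Cpt2 L-/- and DKO against control, and for Lrat, called lower in DKO and not in Cpt2 L-/- (log2 fold change 0.28, adjusted p = 0.456). They are from RefSeq (GRCm38.p6). The windows are chr1:45311288-45311537 on the plus strand for Col3a1, chr6:4505370-4505492 on the plus strand for Col1a2, and chr3:82903975-82904224 on the minus strand for Lrat. For Col3a1 and Lrat they hold the 250 bases before the start site, and for Col1a2 the 123 bases from position -248 to position -126 that lie outside annotated exons. The Col1a2 gene of the count table starts upstream of this RefSeq start site, so that the Col1a2 window lies inside it. Capitals mark matches on either strand to CAGACA, which Smad proteins can bind, to the CCAAT box, to the GC box GGGCGG and to the TATA box letters TATAA.
Col3a1: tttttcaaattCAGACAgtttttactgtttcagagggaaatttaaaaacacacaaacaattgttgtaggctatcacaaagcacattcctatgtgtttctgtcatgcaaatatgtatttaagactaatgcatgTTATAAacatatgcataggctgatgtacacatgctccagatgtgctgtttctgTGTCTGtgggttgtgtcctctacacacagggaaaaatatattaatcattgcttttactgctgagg
Col1a2: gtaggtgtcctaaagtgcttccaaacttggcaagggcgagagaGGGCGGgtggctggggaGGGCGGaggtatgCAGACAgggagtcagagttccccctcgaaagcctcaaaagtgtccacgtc
Lrat: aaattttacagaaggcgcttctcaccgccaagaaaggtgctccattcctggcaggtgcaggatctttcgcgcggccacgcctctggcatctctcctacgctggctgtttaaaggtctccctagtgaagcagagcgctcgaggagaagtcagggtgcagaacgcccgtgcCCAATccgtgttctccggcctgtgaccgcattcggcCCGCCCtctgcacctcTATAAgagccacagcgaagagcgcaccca
CAGACA began at positions -239 and -65 of Col3a1 and at -175 of Col1a2 and had no match in Lrat. The letters are found in 17.1% of all 32851 RefSeq windows of 250 bases, CCAAT in 33.8%, GGGCGG in 32.7% and TATAA in 22.8%. TATAA matched at -29 in Lrat and in Col3a1 at -117 and, on the opposite strand, at -118, CCAAT at -81 and GGGCGG at -45 in Lrat, and GGGCGG at -205 and -188 in Col1a2. In the whole window of Col1a2, CCAAT matched at -109, which lies beyond the printed part. Among the 7 members with an entry, Acta2 also held CAGACA, at -236. The retinoid receptor site letters AGGTCA had no match in the 7 windows and are in 14.0% of all windows. Both matches to TATAA in Col3a1 overlap each other, no other marked match overlaps, and a match only describes the letters.

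Acta2 (chr19:34241090-34255336, minus strand) was 0.543, 7.09, 23.2 and 4.76 CPM in control, 3.15, 0.478, 2.10 and 1.62 in Tsc1 L-/-, 1.38, 2.85, 1.65 and 2.12 in Cpt2 L-/- and 0.903, 1.08, 1.24 and 3.68 in DKO. It was 1.85, 2.45, 1.25 and 31.2 CPM in Ppara KO and 1.06, 0.626, 1.83 and 0.884 in Cpt2 Ppara KO. Control replicate 1 was lower than all libraries but Tsc1 L-/- replicate 2, control replicate 3 was exceeded only by Ppara KO replicate 4, and the groups overlapped. Acta2 was called lower in DKO (log2 fold change -2.35, SE 0.81, adjusted p = 0.0362) and missed the threshold in Cpt2 L-/- (log2 fold change -2.17, SE 0.80, adjusted p = 0.0547), where the log2 fold change was -1.01 without control replicate 3 (adjusted p = 0.302, from 0.00781 to 0.326 over the alternatives). The DKO call was lost without any 1 of DKO replicates 1, 2 and 3, and without control replicate 3 (log2 fold change -1.21, adjusted p = 0.198), and it held in 6 of 17 alternative analyses, with adjusted p from 0.00449 to 0.198.

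Des (chr1:75360329-75368579, plus strand) was 4.22, 10.7, 7.81 and 8.36 CPM in control, 6.12, 3.96, 3.89 and 4.62 in Tsc1 L-/-, 3.89, 5.89, 4.41 and 3.17 in Cpt2 L-/- and 4.35, 2.99, 3.64 and 3.74 in DKO. Control replicate 1 lay within the range of the deletion groups, whereas the other control libraries lay above it. Des fell in Cpt2 L-/- (log2 fold change -0.84, SE 0.26, adjusted p = 0.0174) and in DKO (log2 fold change -1.06, SE 0.26, adjusted p = 0.00380). The call in DKO held with any single library left out (log2 fold change -1.25 to -0.86), though not under every alternative. The call in Cpt2 L-/- was lost without control replicate 2, without Cpt2 L-/- replicate 4, in a fit of all 24 libraries and with limma at the smaller pseudocount, with an adjusted p of up to 0.195 over 17 alternatives. In Ppara KO, Des was 5.45, 4.34, 4.99 and 30.2 CPM, with the same high library as for Acta2, and in Cpt2 Ppara KO it was 3.19, 4.38, 4.73 and 5.03.

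Pdgfrb and Lrat were called lower in DKO than in Cpt2 L-/-, the group that shares its Cpt2 deletion. Pdgfrb was 8.81, 7.92, 9.71 and 9.29 CPM in control, 12.2, 8.40, 6.50 and 7.62 in Tsc1 L-/-, 7.24, 9.0, 8.99 and 8.30 in Cpt2 L-/- and 6.32, 5.92, 3.51 and 4.54 in DKO. The DKO libraries (mean 5.07 CPM) were below all libraries of the other groups of this comparison. Outside it, Pdgfrb was 6.70 to 12.7 CPM in Ppara KO. The Cpt2 Ppara KO libraries, at 2.34 to 8.80 CPM (mean 5.50), overlapped with DKO. Pdgfrb was lower in DKO than in control (log2 fold change -0.80, SE 0.21, adjusted p = 0.00564), than in Cpt2 L-/- (log2 fold change -0.70, SE 0.21, adjusted p = 0.0249) and than in Tsc1 L-/- (log2 fold change -0.76, SE 0.21, adjusted p = 0.00872). In Cpt2 L-/- against control its log2 fold change was -0.10, with a 95% interval of -0.49 to 0.30. The difference from Cpt2 L-/- no longer passed without DKO replicate 3, DKO replicate 4 or Cpt2 L-/- replicate 3, and it held in 10 of 16 alternatives.

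Lrat (chr3:82892579-82903973, minus strand) was 10.9, 8.13, 15.4 and 19.2 CPM in control, 16.6, 8.12, 9.68 and 12.9 in Tsc1 L-/-, 14.9, 16.5, 15.3 and 18.5 in Cpt2 L-/- and 9.49, 7.72, 7.22 and 4.43 in DKO. Every DKO library was below every Cpt2 L-/- library, and both groups overlapped with control. Lrat was lower in DKO than in Cpt2 L-/- (log2 fold change -1.16, SE 0.27, adjusted p = 0.00751), a call that held in all 16 alternatives, and lower than in control (log2 fold change -0.88, SE 0.27, adjusted p = 0.0173). The call against control was lost without control replicate 4, without DKO replicate 4 and with limma, with an adjusted p of up to 0.0847 over 17 alternatives. In Ppara KO, Lrat was 13.1, 5.68, 4.30 and 9.30 CPM, and in Cpt2 Ppara KO it was 12.2, 13.0, 20.8 and 13.8.

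Tgfb1 (chr7:25687002-25705077, plus strand) stayed within a narrow range, from 4.96 to 15.2 CPM, and was called in none of the comparisons by edgeR. Its group means ran from 9.13 ± 2.17 CPM in DKO to 13.0 ± 0.790 in Ppara KO (SD, n = 4), and its log2 fold change in DKO against control was -0.15, with a 95% interval of -0.58 to 0.28. Lox was measured with 1 to 47 counts per library. Its levels were 0.631, 3.71, 2.63 and 1.5 CPM in Ppara KO and 0.362 to 1.39 in control, a difference that did not pass (log2 fold change 1.22, SE 0.67, adjusted p = 0.182). In DKO, Lox was 0.214 to 0.463 CPM (log2 fold change -1.42, SE 0.72, adjusted p = 0.133 against control). Timp1 (chrX:20870166-20874735, plus strand) had 0 to 9 counts per library and group totals of 6, 12, 4, 10, 12 and 8 counts in control, Tsc1 L-/-, Cpt2 L-/-, DKO, Ppara KO and Cpt2 Ppara KO. Differences in Timp1 were not detectable at this depth.

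Across the members, 0 of 9 were called in Tsc1 L-/- against control, where 6.64% of all genes were called, 4.16% higher and 2.48% lower. With an unadjusted p under 0.05 there were 4 (Col1a2, Col3a1, Acta2 and Des, all with negative log2 fold changes). DESeq2 called 2 (Col1a2 and Col3a1), limma called 0, and without control replicate 1 edgeR called 4. In Cpt2 L-/- against control 4 of 9 were lower and 0 higher, against 14.9% of all genes lower and 31.0% called in either direction. In DKO against control 7 of 9 were lower and 0 higher, against 17.1% and 36.4%, and the median log2 fold change of the members was -1.42 (0.02 over all genes tested). The 2 comparisons share the control libraries. Without control replicate 3 the counts were 4 and 6.

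In DKO against Cpt2 L-/- 2 of 9 members were lower, Lrat and Pdgfrb, against 7.40% of all genes lower and 18.3% called in either direction. The collagens did not pass, with a log2 fold change of -0.06 for Col3a1 (95% interval -0.60 to 0.49) and 0.08 for Col1a1 (-0.67 to 0.83). For Col1a2 it was negative throughout, at -0.52 to -0.27 with single libraries left out. In DKO against Tsc1 L-/- 3 of 9 were lower, against 15.2% of all genes lower and 32.2% called. They were Pdgfrb, Col3a1 (log2 fold change -0.90, SE 0.27, adjusted p = 0.0196) and Col1a2 (log2 fold change -0.78, SE 0.24, adjusted p = 0.0193), and without DKO replicate 3 only Pdgfrb was called. Col3a1 was also lost without DKO replicate 4 or Tsc1 L-/- replicate 3. With all 24 libraries in one fit 0 members were called, and DESeq2 called 5. The interaction of Tsc1 and Cpt2 loss was called for 0 of 9 members by edgeR and by DESeq2 (0), against 2.38% of all genes, 1.09% positive and 1.28% negative. At an unadjusted p under 0.05 there were 2, Lrat (log2 fold change -0.98, SE 0.38, adjusted p = 0.169) and Pdgfrb (log2 fold change -0.66, SE 0.29, adjusted p = 0.221). Against control, the libraries did not overlap for 0 members in Tsc1 L-/-, 3 in Cpt2 L-/- and 4 in DKO, beside 12.1%, 30.9% and 37.1% of all genes. DKO did not overlap with Cpt2 L-/- for 2 members and with Tsc1 L-/- for 4, beside 23.1% and 30.6%.

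**Figure D2:**
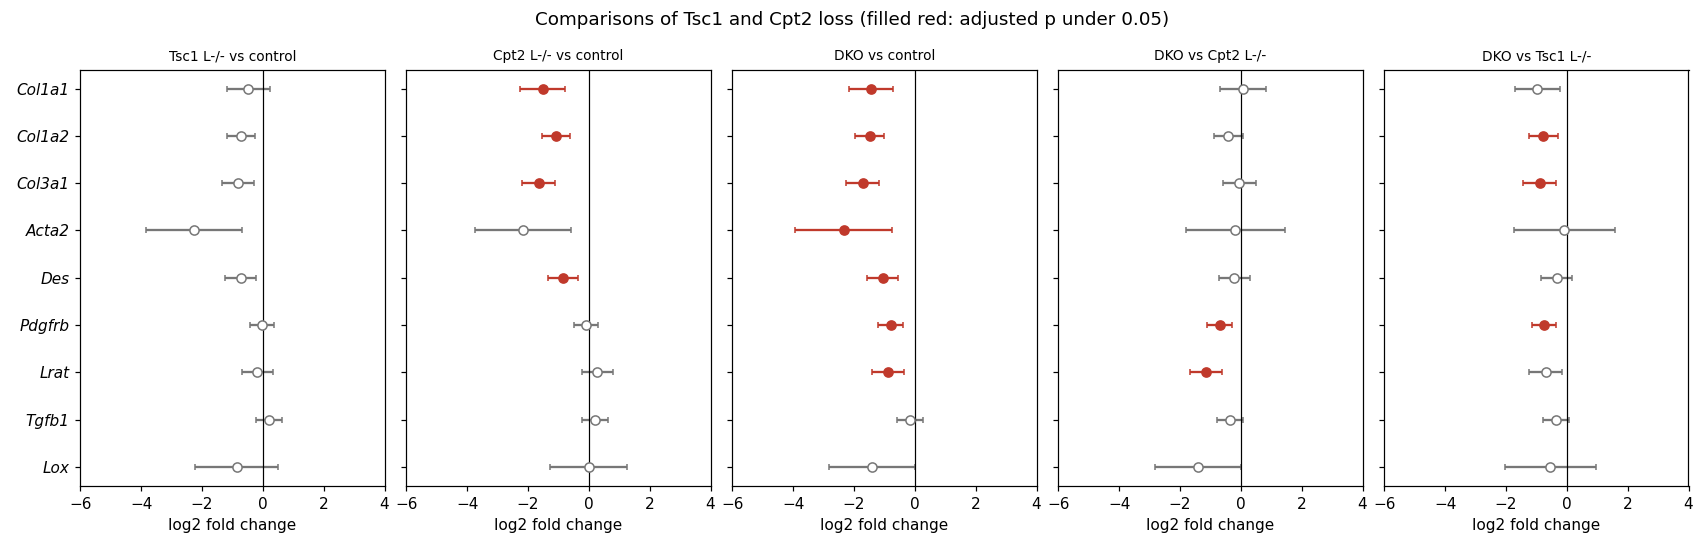
Log2 fold change (horizontal axis) of each member in 5 comparisons among the groups with loss of Tsc1, of Cpt2, of both or of neither. Points are edgeR estimates, bars are 1.96 SE to each side, and filled red points passed an adjusted p of 0.05. The 3 collagens lie at -1.71 to -1.44 in DKO against control and near 0 for Col1a1 and Col3a1 in DKO against Cpt2 L-/-, where Lrat and Pdgfrb are the filled points.

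Loss of Ppara, the nuclear receptor that drives the fasting program of fat oxidation, was compared in libraries fitted with control and Cpt2 L-/- (13615 genes tested). In Ppara KO against control 1 of 9 members was lower, Col3a1 (log2 fold change -1.96, SE 0.39, adjusted p = 0.00127), against 13.2% of all genes lower and 29.0% called, and it was called in all 18 alternatives. Without Ppara KO replicate 4, Col1a1 and Acta2 were called as well. When control replicate 3 was left out too, neither was called by edgeR. Their log2 fold changes were then -1.02 for Col1a1 (adjusted p = 0.129) and -1.18 for Acta2 (adjusted p = 0.179). Without the first Ppara KO and Cpt2 Ppara KO libraries, Lrat was called as well (log2 fold change -1.07, adjusted p = 0.0117, from 0.0117 to 0.289 over the alternatives). In Cpt2 Ppara KO against Cpt2 L-/- edgeR called 0 of 9, with 0 at an unadjusted p under 0.05 and 0 by DESeq2, against 18.4% of all genes (8.01% lower). In that comparison Col3a1 had a log2 fold change of -0.64, with a 95% interval of -1.39 to 0.11. Limma called 0, and without Cpt2 Ppara KO replicate 3 edgeR called Pdgfrb. Ppara KO libraries did not overlap with control for 2 members, beside 29.9% of all genes. 

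In Cpt2 Ppara KO against Ppara KO, Lrat was higher (log2 fold change 0.87, SE 0.31, adjusted p = 0.0487), and Col1a2 (log2 fold change -1.25, SE 0.43, adjusted p = 0.0427) and Acta2 (log2 fold change -3.05, SE 1.05, adjusted p = 0.0428) were lower, against 12.9% of all genes higher and 12.6% lower. All 3 lay just inside the threshold. The count was 0 without Ppara KO replicate 4, with log2 fold changes of -0.73 for Acta2, -0.88 for Col1a2 and 0.94 for Lrat (adjusted p = 0.0749) when control replicate 3 was left out too. It was also 0 without Cpt2 Ppara KO replicate 1 or 2, 5 without Ppara KO replicate 2, and 1 (Lrat) without the first libraries of both groups, while DESeq2 called 7. The interaction of Cpt2 and Ppara loss was called for 0 of 9 members by edgeR and 0 by DESeq2, with 2 at an unadjusted p under 0.05, against 24.0% of all genes. These were Tgfb1 (log2 fold change -0.68, SE 0.32, adjusted p = 0.127) and Col3a1 (log2 fold change 1.32, SE 0.54, adjusted p = 0.0811), of which Col3a1 was called without Ppara KO replicate 4 or Cpt2 L-/- replicate 2.

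**Figure D3:**
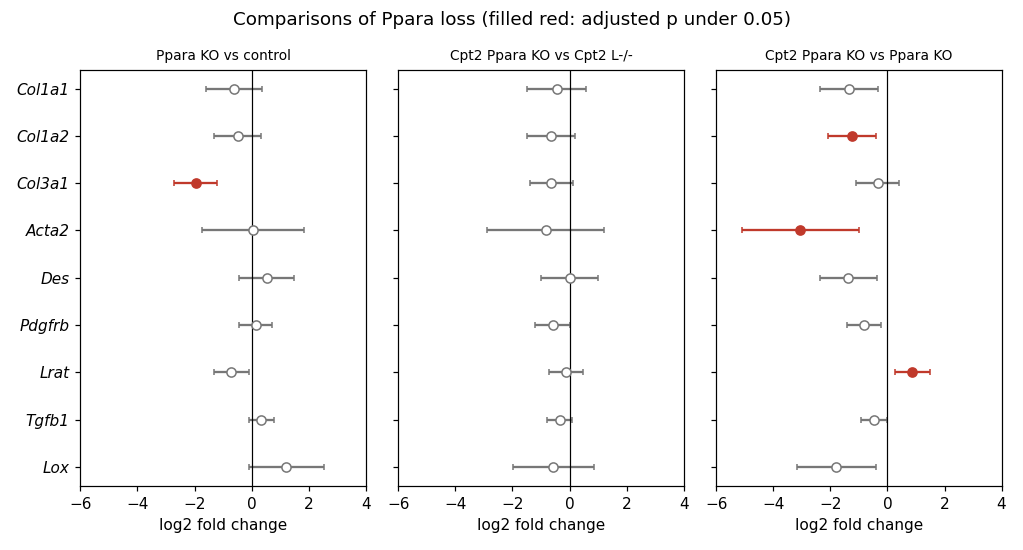
Log2 fold change (horizontal axis) of each member in 3 comparisons of Ppara loss, drawn from edgeR estimates with 1.96 SE to each side and filled red points for an adjusted p under 0.05. Col3a1 (-1.96) is the filled point in Ppara KO against control, none is filled in Cpt2 Ppara KO against Cpt2 L-/-, and the interval of Acta2 is the widest.

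Collagen genes were called lower more often than higher in Cpt2 L-/- and DKO. Of 22 tested collagen genes, 9 were lower and 3 higher in Cpt2 L-/- against control, and 12 lower and 0 higher in DKO (median log2 fold changes -0.94 and -0.81, beside -0.02 and 0.02 over all genes, of which 14.9% and 17.1% were lower). The 3 fibrillar collagens above are among the lower genes in both. The basement membrane collagens Col4a1 and Col4a2 moved the other way in Cpt2 L-/-. Col4a2 was higher (log2 fold change 1.48, SE 0.22, adjusted p = 9.34e-05), as was Col4a1 (log2 fold change 1.25, SE 0.22, adjusted p = 0.00046), and in DKO both were lower than in Cpt2 L-/- (log2 fold changes -1.63 and -1.41). Col5a3, a minor fibrillar chain, was lower in Tsc1 L-/- (log2 fold change -1.76, SE 0.30, adjusted p = 0.00174), in Cpt2 L-/- (log2 fold change -1.49, SE 0.29, adjusted p = 0.000992) and in DKO (log2 fold change -3.22, SE 0.32, adjusted p = 1.83e-06). Without control replicate 3 the collagen counts were 7 lower and 3 higher in Cpt2 L-/-, and 10 lower and 1 higher in DKO.

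Of 26 tested other matrix proteins, 7 were lower and 1 higher in Cpt2 L-/- against control, where 14.9% of all genes were lower and 16.2% higher. In DKO 15 were lower and 0 higher, where 17.1% of all genes were lower and 19.3% higher. Without control replicate 3, 5 were lower in Cpt2 L-/- and 10 in DKO. Fibronectin (Fn1), which hepatocytes also make, fell in DKO (log2 fold change -1.17, SE 0.16, adjusted p = 2.14e-05), as did vitronectin (Vtn, log2 fold change -1.41, SE 0.23, adjusted p = 0.000115). Of 24 tested genes of collagen processing, 8 were lower and 3 higher in DKO and without control replicate 3 the counts were 6 and 3. The prolyl hydroxylase subunit P4ha2 rose in Tsc1 L-/- (log2 fold change 1.53, SE 0.17, adjusted p = 2.66e-05), in Cpt2 L-/- (log2 fold change 0.96, SE 0.17, adjusted p = 0.000279) and in DKO (log2 fold change 1.95, SE 0.17, adjusted p = 2.35e-07), while the procollagen proteinases Bmp1 (log2 fold change -1.04, SE 0.16, adjusted p = 6.59e-05) and Adamts2 (log2 fold change -1.35, SE 0.21, adjusted p = 7.10e-05) fell in DKO. Of 18 tested proteases and inhibitors, 9 were lower in DKO, among them Timp2 (log2 fold change -1.04, SE 0.17, adjusted p = 0.000172), and 2 higher, Adamts1 and Plaur (log2 fold changes 1.34 and 1.47), and without control replicate 3 the counts were 6 and 2. In Cpt2 Ppara KO against Ppara KO 11 of 23 collagens and 14 of 26 other matrix proteins were lower and none higher, and the counts were 9 and 10 without the first libraries of both groups, and 9 and 11 without control replicate 3 and Ppara KO replicate 4, beside 12.6% of all genes lower.

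Ligands, receptors and Smads of the TGF-β pathway went in both directions. Of 25 tested, 6 were higher and 4 lower in Cpt2 L-/- against control, beside 16.2% and 14.9% of all genes, and 2 were higher and 6 lower in DKO, beside 19.3% and 17.1%. Without control replicate 3 there were 6 higher and 0 lower in Cpt2 L-/-, and 0 and 2 in DKO. The type II receptor Tgfbr2 rose in Cpt2 L-/- (log2 fold change 0.91, SE 0.15, adjusted p = 0.000166), and the co-receptor Tgfbr3 fell in Cpt2 L-/- and DKO (log2 fold changes -0.62 and -0.80), the former not called without control replicate 3 (-0.51, adjusted p = 0.0584 by edgeR). In Ppara KO 7 were higher and 1 lower, beside 15.9% and 13.2% of all genes. Without control replicate 3 and Ppara KO replicate 4 there were 5 and 0. Of 19 tested TGF-β target genes, 4 were higher and 7 lower in Cpt2 L-/-, and 4 and 5 without control replicate 3. Fn1 fell there (log2 fold change -0.76, SE 0.16, adjusted p = 0.00121), as did the fibrillar collagens described above. Of 6 PDGF genes, the ligand Pdgfa rose in Cpt2 L-/- (log2 fold change 1.48, SE 0.21, adjusted p = 3.85e-05) and DKO (log2 fold change 1.19, SE 0.21, adjusted p = 0.000246), and both receptors, Pdgfrb and Pdgfra (log2 fold change -0.49), fell in DKO. Pdgfra was not called without control replicate 3 (-0.44, adjusted p = 0.0619 by edgeR). Of 19 tested genes of retinoid storage and metabolism, 10 were lower and 2 higher in DKO, and 8 and 2 without control replicate 3. Retinaldehyde dehydrogenase Aldh1a1 fell in Tsc1 L-/-, Cpt2 L-/-, DKO and Ppara KO (log2 fold changes -1.14, -1.45, -1.74 and -2.37).

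Most markers of stellate cells were lower in DKO. Of 26 tested, 19 were lower and 0 higher in DKO against control (14 lower without control replicate 3), 4 and 1 in Cpt2 L-/-, and 0 and 0 in Tsc1 L-/-. The share of all genes called lower was 17.1% in DKO, 14.9% in Cpt2 L-/- and 2.48% in Tsc1 L-/-. Of the 19 in DKO, 16 were no members. Prelp (log2 fold change -0.95, SE 0.14, adjusted p = 4.96e-05) and the collectin Colec10 (log2 fold change -1.13, SE 0.17, adjusted p = 8.12e-05) fell in DKO. The summed level of the list was 720 to 906 CPM in control, 645 to 713 in Tsc1 L-/-, 555 to 730 in Cpt2 L-/- and 481 to 557 in DKO, so that no DKO or Tsc1 L-/- library reached a control library. In bulk tissue, fewer cells of a type and less RNA per cell cannot be told apart.

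Markers of other cell types were also called lower in DKO. Of 12 endothelial markers 7 were lower in DKO, of 11 Kupffer cell markers 9 lower and 1 higher, and of 10 hepatocyte markers 6 lower, beside 17.1% of all genes. These lower counts were 6, 9 and 7 without control replicate 3. The summed hepatocyte level was 38697 to 46973 CPM in DKO and 84855 to 106711 in control, with 55340 to 82431 in Tsc1 L-/- and 47668 to 75634 in Cpt2 L-/-, so that none of the 3 groups overlapped with control. The summed Kupffer cell level was 233 to 371 CPM in DKO and 335 to 547 in control, and the summed endothelial level 282 to 468 and 521 to 591. The recruited macrophage list was 119 to 235 CPM in DKO and 36.2 to 47.5 in control, with 3 of 8 genes higher and 0 lower. Gpnmb made up much of this sum, at 94.4 ± 27.6 CPM in DKO and 1.71 ± 0.625 in control (SD, n = 4 each, log2 fold change 5.79, SE 0.42, adjusted p = 2.87e-07 by edgeR). Over the 24 libraries, Trem2 and Ccr2 reached at most 2.64 and 1.70 CPM, and Cd9 was 4.65 to 31.2 CPM. Of 15 myofibroblast and smooth muscle genes, 4 were higher and 8 lower in DKO, while their summed level was 826 to 967 CPM in DKO and 595 to 962 in Cpt2 L-/-, both above the 365 to 569 of control. The broadly expressed myosin Myh10 and tropomyosin Tpm1 rose (log2 fold changes 1.84 and 1.37), and Myh11 fell (-2.82). The list counts without control replicate 3 were 4 higher and 1 lower, and the log2 fold change of Myh11 was -1.83, adjusted p = 0.0414 by edgeR. In Cpt2 L-/- against control, Kupffer cell markers were 0 lower and 1 higher of 11, and hepatocyte markers 4 lower of 10, beside 14.9% of all genes lower and 16.2% higher. The part of these shifts in the levels of the members was not tested.

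**Figure D4:**
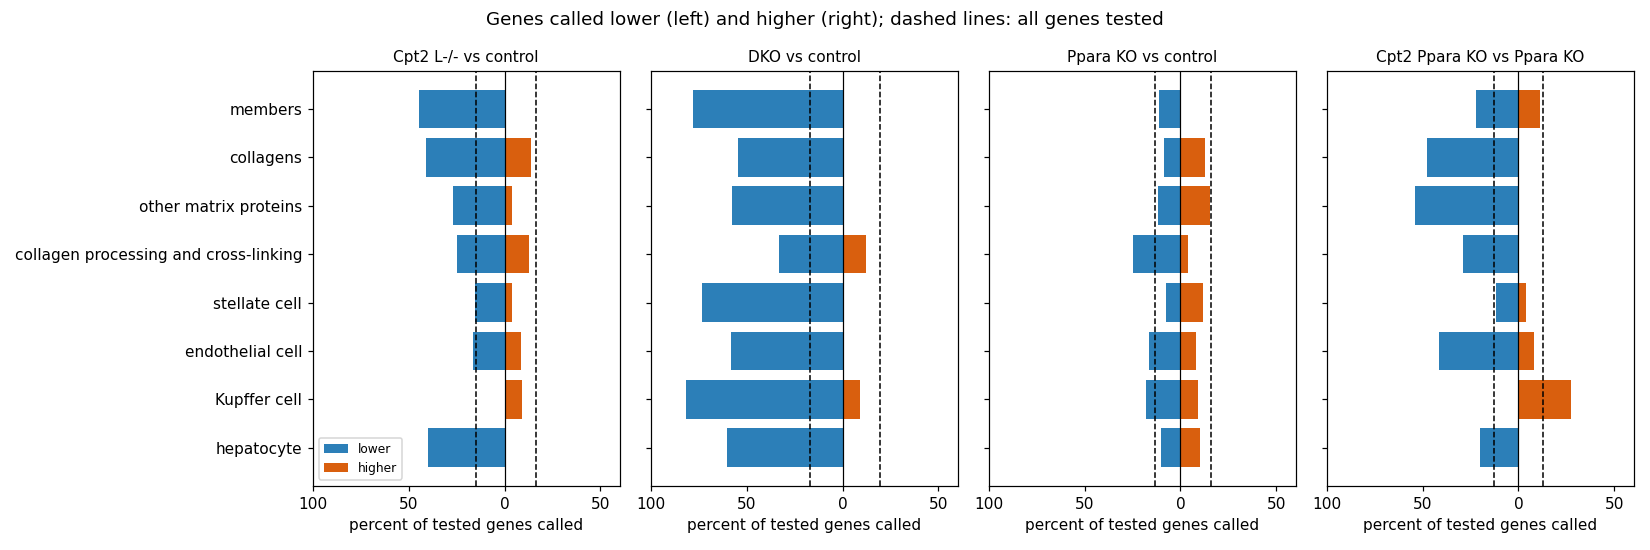
Percent of tested genes of each list called lower (blue, to the left) or higher (orange, to the right) in 4 comparisons, with dashed lines at the percent of all genes called in that direction. In DKO against control the members, the matrix lists and the stellate cell, endothelial, Kupffer cell and hepatocyte lists all extend left past the line at 17.1%.

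The genes most like each member in log2 CPM over the 24 libraries were sought among 12259 genes whose mean reached 1 CPM, as a description in which libraries share genotype and processing. Each gene is given with Pearson's r over the libraries and then with r of the deviations from group means. Col1a1 was most like Col1a2 (0.88 and 0.82), Col3a1 (0.84 and 0.86) and the collagen VI chain Col6a1 (0.82 and 0.74). Col1a2 was most like the procollagen proteinase Adamts2 (0.92 and 0.87), Col6a1 (0.91 and 0.86) and Gpr124 (0.89 and 0.77). Col3a1 was most like the integrin chain Itga8 (0.92 and 0.74), Pls3 (0.89 and 0.57) and Jmjd8 (0.89 and 0.61). Acta2 was most like the smooth muscle genes Myh11 (0.93 and 0.91), Myl9 (0.88 and 0.89) and Tagln (0.87 and 0.86), and Des was most like Myh11 (0.85 and 0.82), Hk1 (0.81 and 0.79) and Tagln (0.81 and 0.79).

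Tgfb1 was most like Sdc3 (0.85 and 0.88), the endothelial receptor Flt4 (0.85 and 0.88) and Arhgap31 (0.84 and 0.87). Pdgfrb was most like Arhgef17 (0.88 and 0.83), the tenascin Tnxb (0.87 and 0.80) and Tnrc18 (0.85 and 0.78). Lrat was most like Mlph (0.84 and 0.80), Oxsm (0.82 and 0.70) and Ciita (0.81 and 0.73). Of the members, Lrat had 0.34 and 0.62 with Pdgfrb, 0.27 and 0.49 with Col3a1, 0.07 and 0.27 with Col1a2, 0.05 and 0.24 with Col1a1, 0.08 and 0.26 with Acta2, 0.08 and 0.28 with Des, 0.11 and 0.24 with Tgfb1, -0.12 and 0.15 with Timp1 and -0.20 and -0.27 with Lox. Lox, at a mean below 1 CPM, was most like Ednrb (0.79 and 0.63), Spon1 (0.77 and 0.62) and Slc7a6 (0.76 and 0.61). For Timp1, at 0 to 9 counts, the highest values were 0.66 and 0.76 with Sulf1, 0.61 and 0.61 with Dnaja4 and 0.57 and 0.68 with Tmem119, and no weight can be put on them.

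**Figure D5:**
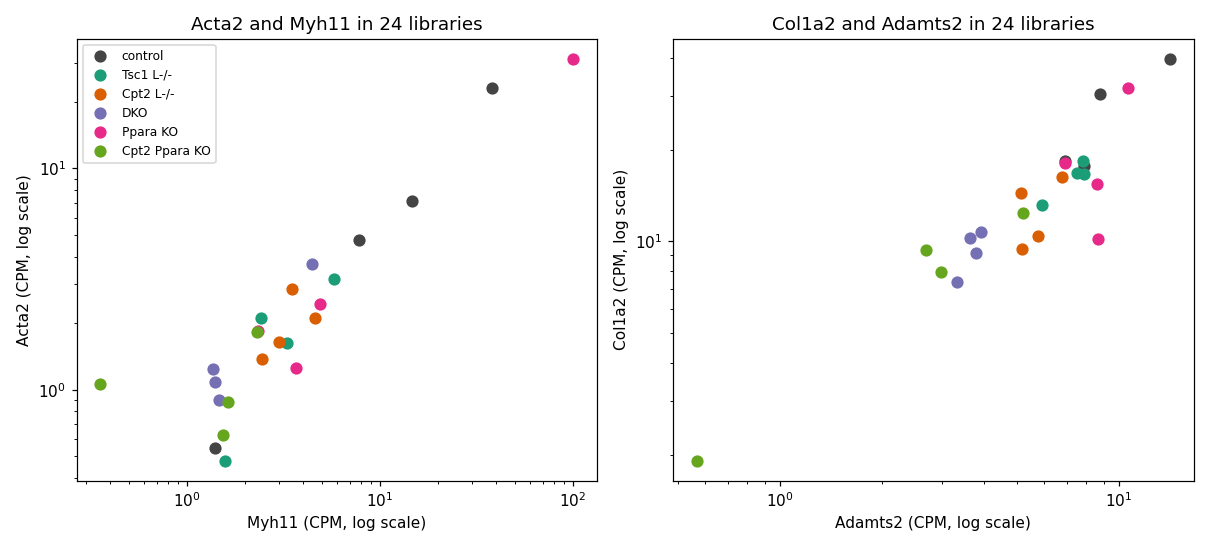
CPM (log axes) of Acta2 against Myh11 and of Col1a2 against Adamts2, with 1 point per library colored by group. Control replicate 3 (23.2 CPM of Acta2) and Ppara KO replicate 4 (31.2) lie at the upper right for Acta2, and Cpt2 Ppara KO replicate 1 (1.91 CPM of Col1a2) lies at the lower left for Col1a2.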

How the data were processed

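Libraries were made from stranded preparations of liver mRNA, and the labels gave each library its group and number. The table of counts that the authors deposited holds raw reads for 35275 genes, and a table of FPKM holds values that equal those counts divided by gene length and library total, in all 24 libraries within 0.001. The submitters' processing notes name Bowtie 0.12.2, TopHat, STAR 2.5, HTSeq 0.6.1, DESeq2 and edgeR without roles, and the builds mm8 and mm9. Gene coordinates in the tables match GRCm38 (start or end equal for 85.9% of genes in GENCODE vM21). The strand setting of the counting is not given in the sources used here, so that reads of overlapping genes may be shared.

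Tests used edgeR 4.0.16 under R 4.3.3 (filterByExpr with a minimum count of 10 and minimum total of 15, TMM, robust quasi-likelihood test), with p-values adjusted by the Benjamini-Hochberg method over all genes tested and a threshold of 0.05. A first fit held control, Tsc1 L-/-, Cpt2 L-/- and DKO (13641 genes), a second held control, Cpt2 L-/-, Ppara KO and Cpt2 Ppara KO (13615), and a last fit held all groups (13987). CPM are TMM-normalized over the 24 libraries, and log2 CPM used a prior count of 2. The FPKM served for levels between genes and for limma 3.58.1. Alternatives were RLE size factors, no filter, DESeq2 1.42.0, other sets of libraries, a replicate block, limma and single libraries left out. The test was tried on simulated counts. No pair of libraries was a duplicate over 36 pairs within groups.

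The members and gene lists were chosen with earlier results of these data known. Named genes were the 10 members, up to 2 higher and 2 lower genes with the lowest adjusted p per list and comparison at a mean of at least 1 CPM, the first 4 markers of each cell type, the 3 genes most like each member, and Tsc1, Cpt2 and Ppara. Of these lists, neutrophil, lymphocyte, cholangiocyte, portal fibroblast and red blood cell markers had 1 of 3, 1 of 4, 1 of 6, 3 of 8 and 0 of 5 lower in DKO against control, beside 17.1% of all genes. Promoter windows came from RefSeq (GRCm38.p6) and held 7 of the 10 members. Some genes that the rule would name are not reported here.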

Additional observations from a re-analysis of the deposited data

Results flagged for a closer look

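In 4 of the 60 groups of 4 libraries examined (10 members in 6 groups), 1 library lay far from the other 3 by Dixon's test, and about 1 group in 20 would do so by chance. Ppara KO replicate 4 stood apart for Acta2, at 31.2 CPM with 2.45 as the nearest library, and for Des, at 30.2 CPM with 5.45 as the nearest. The same library had 101 CPM of Myh11. DKO replicate 4 stood apart for Acta2, at 3.68 CPM with 1.24 as the nearest. Cpt2 L-/- replicate 2 stood apart for Lox, at 2.35 CPM with 0.529 as the nearest, from 37 counts and 9 counts. What sets these libraries apart was not tested.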

How the results depend on the processing

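Of 20 called member values, 9 were called under every alternative and 0 changed sign over 339 alternative values, of which 69 did not pass. The collagen calls in Cpt2 L-/- and DKO against control, Pdgfrb in DKO against control, Lrat in DKO against Cpt2 L-/- and Col3a1 in Ppara KO were those 9. With 1 library left out in turn, the number of members called was 3 to 5 in Cpt2 L-/- vs control, 6 to 7 in DKO vs control, 0 to 4 in Tsc1 L-/- vs control, 1 to 2 in DKO vs Cpt2 L-/-, 1 to 4 in DKO vs Tsc1 L-/-, 0 in the interaction of Tsc1 and Cpt2 loss, 1 to 3 in Ppara KO vs control, 0 to 1 in Cpt2 Ppara KO vs Cpt2 L-/-, 0 to 5 in Cpt2 Ppara KO vs Ppara KO, 0 to 1 in the interaction of Cpt2 and Ppara loss, and 7 to 8 members differed among the 6 groups. Alternatives moved these counts by over 1.5 times as follows, and the cause was not tested. DESeq2 called 2 members in Tsc1 L-/- vs control, 5 in DKO vs Tsc1 L-/- and 7 in Cpt2 Ppara KO vs Ppara KO. All 24 libraries in one fit gave 1 in DKO vs Cpt2 L-/-, 0 in DKO vs Tsc1 L-/-, 7 in Cpt2 Ppara KO vs Ppara KO and 1 in the interaction of Cpt2 and Ppara loss. In Cpt2 Ppara KO vs Ppara KO, no filter on low counts, a fit of only the 2 groups, limma on log2 FPKM with a pseudocount of 1 or 0.1, and leaving out the 2 libraries high in smooth muscle genes each gave 0. Leaving out the first Ppara KO and first Cpt2 Ppara KO libraries gave 2 in Ppara KO vs control, 1 in Cpt2 Ppara KO vs Ppara KO and 1 in the interaction of Cpt2 and Ppara loss. Limma gave 1 in DKO vs Cpt2 L-/- and 5 members differing among the 6 groups with either pseudocount. Both sets of left-out libraries were chosen after the data were seen.

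Under some alternatives, values that were not called changed sign. With DESeq2, the log2 fold change was 0.0024 for Lox in Cpt2 L-/- vs control. With all 24 libraries in one fit, the log2 fold change was 0.0022 for Lox in Cpt2 L-/- vs control. With limma on log2 FPKM, pseudocount 1, the log2 fold change was 0.0015 for Pdgfrb in Tsc1 L-/- vs control, 0.0040 for Lox in Cpt2 L-/- vs control, 0.028 for Col3a1 in DKO vs Cpt2 L-/-, -0.29 for Acta2 in Ppara KO vs control. With limma on log2 FPKM, pseudocount 0.1, the log2 fold change was 0.049 for Col3a1 in DKO vs Cpt2 L-/-, 0.016 for Acta2 in DKO vs Tsc1 L-/-, -0.34 for Acta2 in Ppara KO vs control. Without the 2 libraries high in smooth muscle genes, the log2 fold change was 0.0080 for Pdgfrb in Tsc1 L-/- vs control, 0.35 for Lox in Cpt2 L-/- vs control, -1.18 for Acta2 in Ppara KO vs control, -0.67 for Des in Ppara KO vs control, 0.33 for Acta2 in the interaction of Cpt2 and Ppara loss, 0.67 for Des in the interaction of Cpt2 and Ppara loss. With no filter on low counts, the log2 fold change was -0.0058 for Des in Cpt2 Ppara KO vs Cpt2 L-/-. With only the 2 groups compared in the fit, the log2 fold change was -0.00078 for Des in Cpt2 Ppara KO vs Cpt2 L-/-. With the replicate block, the log2 fold change was -0.18 for Acta2 in Ppara KO vs control, -0.067 for Des in Cpt2 Ppara KO vs Cpt2 L-/-. Without the first Ppara KO and first Cpt2 Ppara KO libraries, the log2 fold change was -0.016 for Pdgfrb in Ppara KO vs control, 0.031 for Col3a1 in Cpt2 Ppara KO vs Ppara KO, 0.13 for Col1a2 in the interaction of Cpt2 and Ppara loss. With single libraries left out, the ranges that crossed 0 were Pdgfrb in Tsc1 L-/- vs control -0.25 to 0.079, Lrat in Tsc1 L-/- vs control -0.39 to 0.048, Lox in Cpt2 L-/- vs control -1.08 to 0.35, Lox in the interaction of Tsc1 and Cpt2 loss -0.90 to 0.53, Acta2 in DKO vs Tsc1 L-/- -0.77 to 0.31, Col1a1 in DKO vs Cpt2 L-/- -0.080 to 0.37, Col3a1 in DKO vs Cpt2 L-/- -0.22 to 0.19, Acta2 in DKO vs Cpt2 L-/- -0.87 to 0.033, Acta2 in Ppara KO vs control -2.28 to 1.16, Pdgfrb in Ppara KO vs control -0.025 to 0.29, Des in Ppara KO vs control -0.65 to 0.80, Col1a1 in the interaction of Cpt2 and Ppara loss -0.13 to 0.83, Col1a2 in the interaction of Cpt2 and Ppara loss -0.47 to 0.17, Acta2 in the interaction of Cpt2 and Ppara loss -2.00 to 1.42, Des in the interaction of Cpt2 and Ppara loss -0.79 to 0.64, Lox in Cpt2 Ppara KO vs Cpt2 L-/- -0.92 to 0.53, Des in Cpt2 Ppara KO vs Cpt2 L-/- -0.12 to 0.19.

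Samples with the same replicate number showed no strong common deviation (correlations of -0.26 to 0.22 over 60 pairs, 11 of them over 0.1), so that no pairing by these numbers was seen. Other groupings of the samples, such as litters, were not tested. With a replicate block the members called were 4 in Cpt2 L-/- vs control, 6 in DKO vs control, 2 in DKO vs Cpt2 L-/-, 3 in DKO vs Tsc1 L-/-, 1 in Ppara KO vs control, 4 in Cpt2 Ppara KO vs Ppara KO and 0 in the other 4 comparisons.

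Counts of 0 to 47 for Lox and Timp1 limit what can be seen for them, and the values of Acta2 move with single libraries.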
